A study of Rattus norvegicus with 3 samples.

Results

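The translation factor genes described here are the rat genes whose symbols name a eukaryotic initiation factor (Eif followed by a digit) or elongation factor (Eef followed by a digit). Members were chosen by symbol alone, from probe sets that the platform annotation gives exactly 1 gene symbol, and the Y-linked symbol Eif2s3y was left out. This gave 59 genes on 92 probe sets, of 14218 genes on 20832 single-symbol probe sets in all. Of the 59 symbols, 48 begin with Eif and 11 with Eef. Eif3e and Eif5 shared their probe sets with other symbols and Eif1 had no single-symbol probe set, so these factors were not analysed here.

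The study placed the RNA of 3 single somata (neuronal cell bodies) on 1 array each, and all 3 form 1 group. A glass pipette was used to take each soma from its neuron, a pyramidal cell (the principal excitatory type of the hippocampus) of the Sprague-Dawley rat strain. The neurons had been taken at embryonic day 19 (E19) and kept for 14 days as dispersed primary cultures, with no treatment or genetic change named. Neither animal nor dish is given for these biological replicates, and the spread between them holds differences between cells together with those from amplifying the RNA of 1 cell. No p-value was therefore computed, and values are described by their level in each soma and by the standard deviation (SD, n = 3).

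Protein synthesis begins when eIF2 brings the initiator tRNA to the small ribosomal subunit, where eIF1, eIF1A and eIF3 hold the complex ready to scan. The mRNA cap is bound by eIF4E, which joins the scaffold eIF4G and the RNA helicase eIF4A, while the 4E-binding proteins compete for eIF4E. The exchange factor eIF2B recharges eIF2 with GTP until a kinase phosphorylates eIF2, and the elongation factors eEF1A and eEF2 then deliver tRNAs and move the ribosome along the message. In neurons, control at the eIF4E, eIF2 and eEF2 steps is known from work on synaptic plasticity and memory.

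A gene's level is given as its percentile among the 14218 genes of an array, so that 100 is the brightest gene and 50 the middle. The value of a gene was the median of its probe sets. Percentiles of single probe sets are among the 20832 single-symbol probe sets, which is another scale. Eif1ax, with 1 probe set, was at 9.33 in soma 2 as a gene and at 12.3 as a probe set. A percentile also depends on how well a probe set binds its target, so the order of different genes is an order of signals and not of transcript numbers. The background of an array was set from 120 genes not thought to be transcribed in neurons, namely 28 odour, taste and pheromone receptors and 92 genes of other organs. At the 95th percentile of those genes, the background reached 9.62, 9.91 and 9.39 on the log2 scale in somata 1, 2 and 3, against array medians of 7.23, 7.16 and 7.09. Most factor genes therefore had values that this background could also give, and a low percentile is no evidence of absence.

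The arrays differed in several ways that touch the values below. The Gapdh control probe sets at the 3′ end were brighter than those at the 5′ end by 0.20 log2 units in soma 1, by 3.06 in soma 2 and by 2.93 in soma 3. The 10 microglial markers had median percentiles of 70.8, 51.6 and 33.9, and 4 of them (Tyrobp, C1qc, Csf1r and Itgam) were above background in soma 1 and none in the other somata. Tyrobp lay at percentiles 99.3, 9.9 and 2.9, but 3 of the 10 were lowest in soma 1, such as Aif1 at 1.6, 31.9 and 28.3. Of the 8 astrocyte markers measured, 2 were above background in soma 1 (S100b and Gja1) and none in the others. However, 4 of the 8 were lowest in soma 1, such as Gfap at 14.9, 68.0 and 47.8. Oligodendrocyte markers had medians of 75.1, 64.5 and 56.6, but 2 of them (Mag and Sox10) were above background in soma 2 and none in somata 1 and 3. The vessel marker Vwf lay at 99.8, 99.8 and 99.7. Of the 9 interneuron markers measured, 1 was above background in each soma, namely Calb2 in somata 1 and 3 and Vip in soma 2. Calb2 lay at 98.3, 91.0 and 99.1, and Vip at 62.7, 97.0 and 44.8. The interneuron list had medians of 57.3, 70.1 and 36.7, and the pyramidal neuron list 54.8, 41.4 and 69.3. Of the 10 pyramidal neuron markers measured, Neurod2 was at 99.9 in each soma and Nrgn at 94.8, 99.4 and 98.8. Other defining markers of these cells were not bright: Slc17a7 lay at 55.3, 51.2 and 51.2, and Camk2a at 26.5, 19.6 and 26.2. The part that these differences play in the factor values was not tested.

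As a group, the translation factors lay slightly above the middle of the arrays. Their median percentile was 59.1, 53.0 and 53.6 in somata 1, 2 and 3, a mean of 55.2 ± 3.35 (SD, n = 3). The initiation factor symbols had medians of 59.8, 56.0 and 57.1, and the elongation factor symbols had 36.4, 39.0 and 53.4. The low medians of the Eef symbols came with 5 genes that are not elongation factors themselves (3 methyltransferases, Eef1e1 and the kinase Eef2k), which had 24.2, 23.2 and 36.0. The 6 genes of eEF1A, eEF1B and eEF2 had 56.7, 46.0 and 63.8, under the initiation symbols in somata 1 and 2 and above them in soma 3. All these medians lay under those of the 44 cytosolic ribosomal protein genes, at 69.7, 82.1 and 83.7.

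Among single genes, 4, 5 and 7 of the 59 were in the top 5% of somata 1, 2 and 3, beside 5.01%, 5.01% and 5% of all genes. Only Eif4a1 was there in each soma, where 1.39% of all genes were. In at least 1 soma, 10 factors reached the top 5%, or 16.9% of them, against 9.91% of all genes. Above background were 5 factors in soma 1, beside 7.68% of all genes, 5 in soma 2, beside 6.31%, and 12 in soma 3, beside 11.2%. Again Eif4a1 alone passed in all 3 somata, as 2.19% of all genes did, and 16 factors passed in at least 1 soma, as 17.2% of all genes did. Above the 50th percentile in each of the 3 somata were 20 factors, or 33.9% of the members beside 26.4% of all genes. Below it in each soma were 13, or 22% beside 25%. Above the 75th percentile in each soma were 5, beside 8.64% of all genes, namely Eef1b2, Eif3i, Eif4a1, Eif4ebp2 and Eif4g2. Below the 25th in each were 6, beside 7.65%, namely Eif1a, Eif2a, Eif2ak2, Eif2b1, Eif2s1 and Eif3j.

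**Figure D1:**
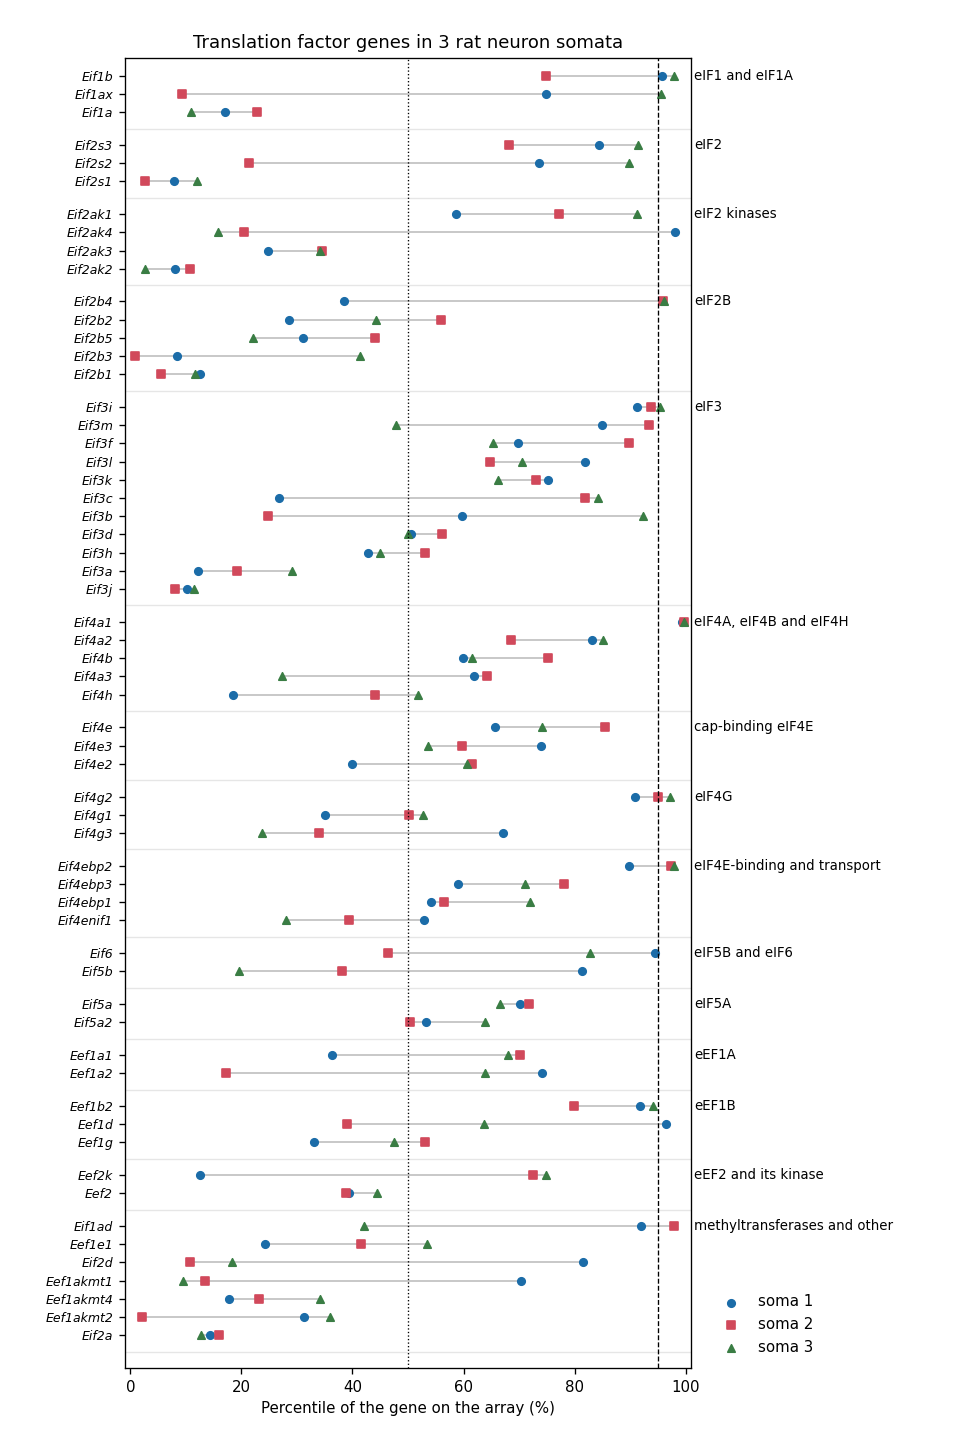
Percentile on the array (x axis, %) of each of the 59 factor genes in soma 1 (circles), soma 2 (squares) and soma 3 (triangles), grouped by factor complex. Dotted and dashed vertical lines mark the 50th and 95th percentiles. Eif4a1 is the only gene with all 3 points right of the dashed line, while Eif1ax and Eif2ak4 run across most of the scale.

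The factors of start codon selection, eIF1 and eIF1A, had the widest range of the groups. Eif1b, a close relative of eIF1, lay at percentiles 95.7, 74.9 and 98.0. Eif1ax, which codes for eIF1A, lay at 74.9, 9.33 and 95.5, and its normalised log2 values were 8.20, 5.40 and 10.38. The related Eif1a entry stayed low, at 17.0, 22.9 and 10.8. Both Eif1b and Eif1ax were thus lowest in soma 2, beside 29.3% of all genes, and highest in soma 3, beside 37.5%. Eif1a was instead highest in soma 2 and lowest in soma 3. The range of Eif1ax over the somata was 4.98 log2 units. The 4 Eif1a probe sets did not give one level, since one of them lay at 94.4, 46.3 and 7.22 while another lay at 1.74, 7.30 and 6.74.

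The 3 subunits of eIF2, which carries the initiator tRNA, did not share a level. Eif2s1, the alpha subunit that the stress kinases phosphorylate, was at percentiles 7.85, 2.61 and 12.1. Eif2s2, the beta subunit, was at 73.5, 21.4 and 89.7, and Eif2s3, the gamma subunit, at 84.3, 68.2 and 91.3. Every subunit was lowest in soma 2, as 29.3% of all genes were, and highest in soma 3, as 37.5% were. Eif2s1 was above background in no soma, so the order of its values is uncertain. Eif2s2 moved most, with normalised log2 values of 8.13, 6.11 and 9.42, whereas the 3 values of Eif2s1 stayed within 0.87 log2 units.

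Among the 4 kinases that phosphorylate eIF2, only Eif2ak1 (HRI, the heme-regulated kinase) was above the 50th percentile of each array, at 58.7, 77.3 and 91.2. Eif2ak2 (PKR, which responds to double-stranded RNA) lay in the lower part of every array, at 7.98, 10.7 and 2.69. Eif2ak3 (PERK, the kinase of the endoplasmic reticulum) lay at 24.9, 34.6 and 34.1. Eif2ak4 (GCN2, which senses uncharged tRNA) was at 98.2 in soma 1 but at 20.4 and 15.8 in somata 2 and 3. Its normalised log2 values were 11.15, 6.07 and 5.83, and its SD of 3.01 was the largest of the 59 factors. The gene was read by 1 probe set. Soma 1 differed from the others in the Gapdh controls and in several glial markers, some higher and some lower, as given above. The part of these differences was not tested.

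The 5 subunits of the exchange factor eIF2B had a low mean of their medians, at 38.0 ± 8.30. Eif2b1 (alpha) lay at 12.5, 5.48 and 11.6, and Eif2b3 (gamma) at 8.34, 0.88 and 41.4. Eif2b2 (beta) was at 28.6, 55.9 and 44.3. By gene value Eif2b5 (epsilon, the catalytic subunit) was below the 50th percentile in every soma, at 31.1, 44.1 and 22.1. Its 2 probe sets did not share a level, at 7.71, 33.3 and 20.7 and at 69.4, 58.3 and 31.2, so that the brighter was above 50 in somata 1 and 2. Eif2b4 (delta) stood apart at 38.5, 95.9 and 96.2. Its normalised log2 values of 6.79, 10.35 and 10.55 put somata 2 and 3 close to each other and far above soma 1.

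The largest factor, eIF3, was measured through 11 of its subunits and differed little between arrays as a group, with medians of 59.8, 64.8 and 65.3. Eif3i lay high in every soma, at 91.2, 93.7 and 95.4. Eif3k was at 75.2, 73.1 and 66.2, Eif3l at 81.9, 64.8 and 70.5, and Eif3f at 69.8, 89.8 and 65.3. These 4 were above the 50th percentile of every array, together with Eif3d at 50.5, 56.2 and 50.1. Eif3j, a loosely bound subunit, stayed at 10.1, 8.10 and 11.4, and Eif3a, the largest subunit, at 12.2, 19.2 and 29.0. The other subunits set single somata apart, except by gene value for Eif3h at 42.9, 53.1 and 45.0, whose probe sets differed widely, as described further on. Eif3b lay at 59.8, 24.7 and 92.3, Eif3c at 26.8, 81.8 and 84.3, and Eif3m at 84.9, 93.3 and 47.8.

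Of the helicase factors, Eif4a1 was among the brightest genes of each array, at percentiles 99.3, 99.7 and 99.6. Its deposited log2 values were 11.60, 12.24 and 12.33, or 12.06 ± 0.40 (SD, n = 3). This level rests on 1 probe set. One of the genes used for the background, Csn1s1, lay at a like level, at 99.7, 99.8 and 99.3. Eif4a2, a relative of Eif4a1, was at 83.1, 68.5 and 85.1, and Eif4a3, which belongs to the exon junction complex, at 61.9, 64.1 and 27.4. The helicase cofactors differed from each other, with Eif4b at 59.9, 75.1 and 61.6 and Eif4h at 18.4, 44.1 and 51.7.

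The genes of cap recognition mostly lay above the 50th percentile. Eif4e, the cap-binding protein, lay at 65.6, 85.5 and 74.1. Its relative Eif4e2 was at 39.9, 61.6 and 60.7, and Eif4e3 at 73.9, 59.7 and 53.6. Among the scaffolds, Eif4g2 (also called DAP5, which lacks the eIF4E-binding part) was at 90.8, 95.04 and 97.2. Eif4g1 lay at 35.0, 50.1 and 52.7, and Eif4g3 at 67.1, 34.0 and 23.6. Eif4g2 was thus the scaffold with a strong signal in every soma, although its probe sets differed widely, as described further on.

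All 3 genes of 4E-binding proteins were above the 50th percentile of every array. Eif4ebp2, the form known as the main one in brain, lay at 89.9, 97.4 and 97.9. Eif4ebp1 was at 54.2, 56.5 and 71.9, and Eif4ebp3 at 59.1, 78.0 and 71.1. Eif4enif1, which carries eIF4E into the nucleus, lay lower at 52.8, 39.3 and 28.0. Eif4ebp2 had a lower normalised log2 value in soma 1, at 9.35, than in somata 2 and 3, at 10.78 and 11.02.

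The factors of subunit joining were both higher in soma 1. Eif5b, the GTPase of subunit joining, lay at 81.4, 38.1 and 19.5, and Eif6, which keeps large and small subunits apart, at 94.4, 46.3 and 82.7. Eif5a, the factor that carries the amino acid hypusine, was steady at 70.2, 71.8 and 66.6. Its normalised log2 values of 7.98, 8.11 and 7.90 had an SD of 0.11. Eif5a2 lay at 53.3, 50.4 and 63.9. Its 2 probe sets ran in opposite directions, at 45.6, 70.5 and 46.8 and at 60.5, 30.8 and 76.4.

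Of the elongation factors, Eef1b2 lay high in every soma and the others did not. Eef1a1, the widely used form of the tRNA carrier eEF1A, lay at 36.4, 70.2 and 68.1. Eef1a2, the form that takes over in mature neurons and muscle, lay at 74.2, 17.1 and 63.9. Their order differed between somata, with Eef1a2 above Eef1a1 in soma 1, below it in soma 2, and within 5 percentile points of it in soma 3. Both genes have 2 probe sets, and 1 of those of Eef1a1 can match several transcripts by its manufacturer suffix. That probe set lay at 18.8, 59.9 and 48.1, and the other at 61.7, 76.9 and 80.8. The Eef1a2 probe sets lay at 69.4, 23.6 and 33.1 and at 74.7, 17.8 and 83.9. The near tie in soma 3 thus comes from probe sets that differ widely.

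Of the exchange factor eEF1B, which recharges eEF1A, Eef1b2 was bright in every soma at 91.8, 79.9 and 94.1. Eef1d was bright in soma 1 alone, at 96.5, 39.0 and 63.7, and Eef1g stayed near or under the middle at 33.1, 53.0 and 47.5. Eef2, the translocation factor, was by gene value among the steadiest members at 39.3, 38.8 and 44.5, with an SD of 0.13 log2 units. However, its 2 probe sets ran in opposite directions, at 69.1, 35.9 and 31.2 and at 16.3, 45.7 and 60.9. Its inhibitor Eef2k, the calcium-dependent kinase of eEF2, lay at 12.5, 72.5 and 74.8. Its 4 probe sets were each lowest in soma 1 but did not share a pattern, since one lay at 8.75, 66.8 and 14.3 and another at 3.90, 37.8 and 74.99, and the gene was above background in no soma.

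The other members mostly lay below the 50th percentile. The methyltransferases of eEF1A lay at 70.3, 13.4 and 9.42 for Eef1akmt1, at 31.2, 2.02 and 36.0 for Eef1akmt2 and at 17.8, 23.2 and 34.1 for Eef1akmt4. Eef1e1, a part of the tRNA synthetase complex, was at 24.2, 41.6 and 53.4. Eif2a, a tRNA-binding protein that is no subunit of eIF2, stayed at 14.3, 16.04 and 12.7, with an SD of 0.10. Eif2d, an alternative initiation factor, was at 81.6, 10.7 and 18.3, and Eif1ad, a protein with an eIF1A-like domain, at 91.9, 97.8 and 42.0.

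**Figure D2:**
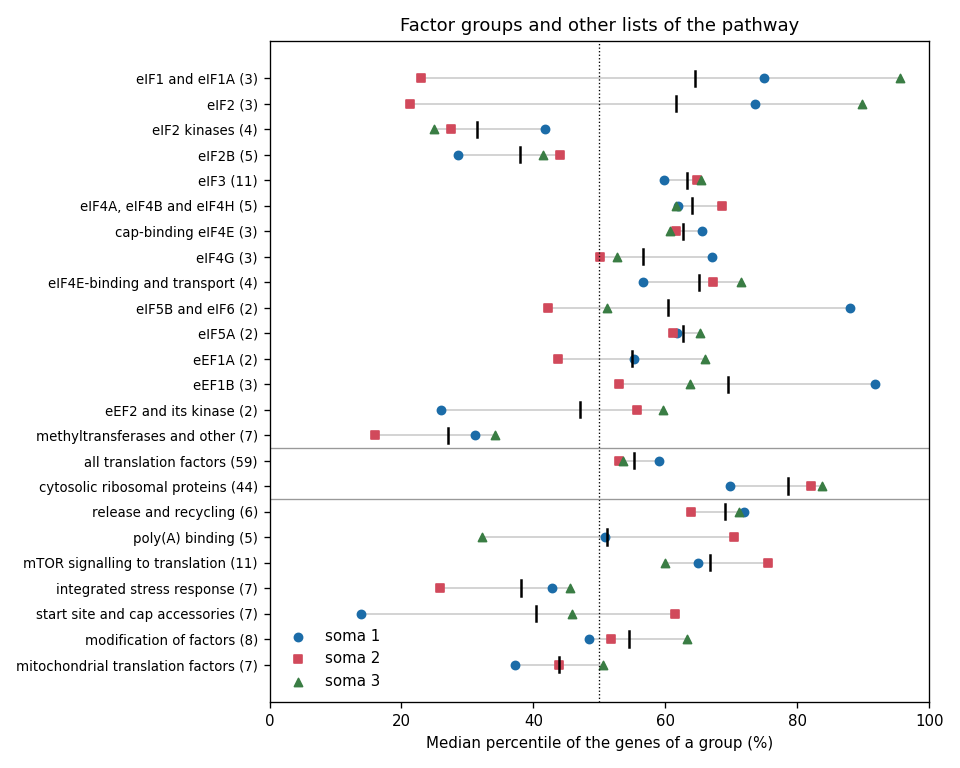
Median percentile (x axis, %) of the genes of each factor group, of all 59 factors and ribosomal protein genes, and of 7 further lists of the translation pathway, in soma 1 (circles), soma 2 (squares) and soma 3 (triangles), with the number of genes measured in parentheses and the mean of the 3 somata as a black bar. Groups of 2 or 3 genes such as eIF2 and eIF5B with eIF6 spread over much of the scale, and eIF3 and eIF5A stay within a few points.

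Between groups, 11 of the 15 had a mean of their medians above 50. The 4 below it were eIF2B, the eIF2 kinases at 31.4 ± 9.08, eEF2 with its kinase at 47.1 ± 18.4, and the methyltransferases and other genes at 27.1 ± 9.70. The groups of cap recognition were close to each other, with eIF4E at 62.6 ± 2.62, the helicase group at 64.0 ± 3.93 and the 4E-binding and transport group at 65.1 ± 7.67. The eIF1 group at 64.4 ± 37.4 and eIF2 at 61.5 ± 35.7 varied most between somata. These SDs are of medians over the same few genes and do not hold the spread between genes, so no group is set apart from another by them. Below 50 in each soma were the eIF2 kinases, the methyltransferase group and eIF2B, and the eIF3, eIF4A, eIF4E, eIF4G, eIF4E-binding, eIF5A and eEF1B groups were above 50 in each.

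The other genes of the translation pathway gave a range of levels. The 6 genes of release and recycling had medians of 71.8, 63.8 and 71.2, the highest mean (69.0 ± 4.45) of the 7 further lists. Etf1, the release factor that reads stop codons, lay at 89.97, 97.3 and 96.6. Pelo, which rescues stalled ribosomes, lay at 88.2, 97.8 and 97.6. The second GTPase gene of release, Gspt2, was low at 5.7, 38.1 and 13.3.

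In the mTOR pathway, which acts on translation through the 4E-binding proteins, the 11 genes measured of 12 had medians of 64.9, 75.6 and 59.9. Tsc2 had the highest median over the somata, at 99.4, 99.5 and 32.7, but was low in soma 3. Rptor, the subunit that recruits substrates, was at 91.9, 87.9 and 90.4, and the activator Rheb at 92.6, 87.8 and 88.9. Rps6kb1, a kinase downstream of mTOR, lay at 42.9, 15.7 and 12.4. Mtor itself was low in soma 1 and high in the others, at 26.2, 85.1 and 78.6. Larp1, which binds messages with a terminal pyrimidine run, was above the 75th percentile in every soma, at 75.6, 85.8 and 92.9.

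The 7 genes of the integrated stress response, which lies downstream of the eIF2 kinases, had medians of 42.8, 25.9 and 45.5. Atf4, the transcription factor whose translation rises when eIF2 is phosphorylated, was at 38.0, 93.6 and 91.5, and Asns, one of its targets, at 3.5, 5.0 and 38.5. The 8 measured genes that modify factors had medians of 48.4, 51.7 and 63.3. In that list Dohh, which completes hypusine on eIF5A, was above background in each soma, at 93.6, 97.7 and 96.1, and was the only one of 51 measured pathway genes to be so. The poly(A)-binding list had medians of 50.9, 70.3 and 32.3 over 5 genes, the start site and cap accessories 13.9, 61.4 and 45.8 over 7, and the mitochondrial factors 37.2, 43.9 and 50.6 over 7. Fmr1, an RNA-binding repressor of translation in neurons, was low at 5.6, 44.6 and 5.1.

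To compare somata gene by gene, the 31099 probe sets of the arrays were first brought to one distribution by quantile normalisation, and differences are given on that log2 scale. A difference over 1 log2 unit, that is over 2-fold, was found for 25 of the 59 factors between somata 1 and 2, beside 46.7% of all genes. Of these, 14 were higher in soma 1, beside 21.8% of all genes, and 11 lower, beside 24.9%. Between somata 1 and 3 it was found for 23, beside 50.4%, with 10 higher in soma 1, beside 21.9%, and 13 lower, beside 28.5%. Between somata 2 and 3 it was found for 15, beside 36.3%, with 4 higher in soma 2, beside 17%, and 11 lower, beside 19.3%. Somata 2 and 3 were thus the closest pair for the factors and for all genes. The median absolute difference of the factors was 0.84, 0.77 and 0.46 log2 units in the 3 pairs, against 0.92, 1.01 and 0.74 over all genes. Pearson's r across the 59 genes, which are not independent replicates and share an array and its probes, was 0.527, 0.548 and 0.652, and over all genes it was 0.473, 0.437 and 0.676.

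**Figure D3:**
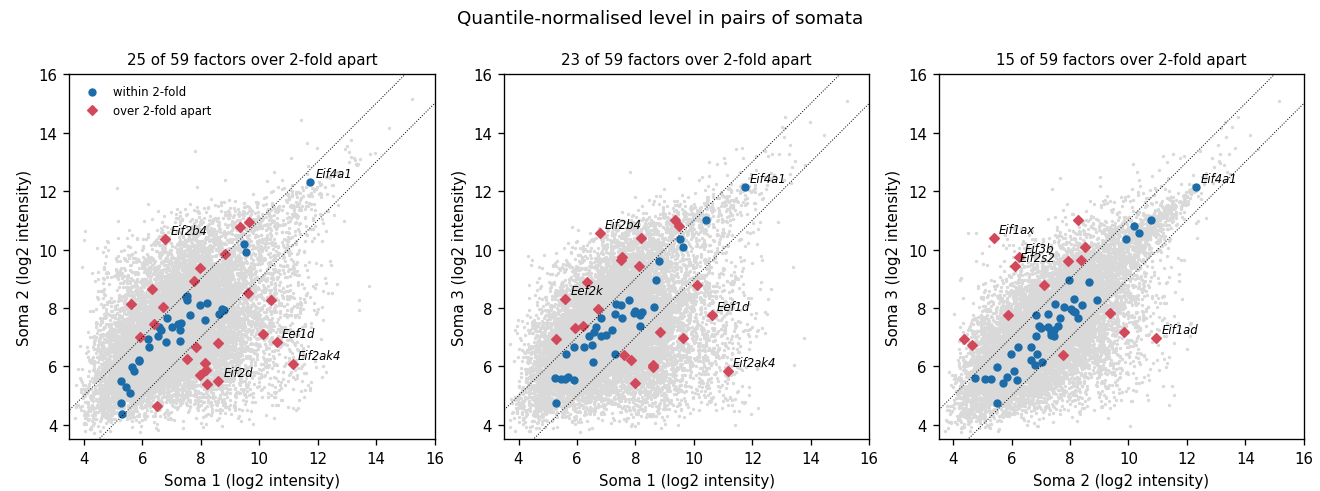
Quantile-normalised log2 intensity of the factor genes in each pair of somata (circles within 2-fold, diamonds over 2-fold apart) over all genes in grey. Dotted lines mark a 2-fold difference, and the names mark factors with wide differences together with Eif4a1, which lies between the lines at the top of each panel.

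Each soma had factors that set it apart from both others by over 2-fold. In soma 1, 7 were higher, beside 14.5% of all genes, and these were Eef1akmt1, Eef1d, Eif2ak4, Eif2d, Eif4g3, Eif5b and Eif6. Another 6 were lower in soma 1, beside 14.7%, namely Eef1a1, Eef2k, Eif2b4, Eif3c, Eif4ebp2 and Eif4h. In soma 2, 3 were higher, beside 8.4%, and 8 were lower, beside 6.37%. The 8 were Eef1a2, Eef1akmt2, Eef1b2, Eif1ax, Eif1b, Eif2s2, Eif3b and Eif6, so that 3 of them belong to the eIF1 and eIF2 groups of the first initiation step. In soma 3, 5 were higher, beside 10.8%, which were Eif1ax, Eif2ak1, Eif2b3, Eif2s2 and Eif3b, and 3 were lower, beside 7.61%. Soma 1 held the highest value of 13 factors, or 22% beside 31.5% of all genes, and the lowest value of 25, or 42.4% beside 42.9%. Soma 3 held the highest value of 26, or 44.1% beside 37.5%.

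The spread between the somata was described by the SD of the normalised log2 values. Its median was 0.58 over the factors and 0.77 over all genes, and 28 factors, or 47.5%, stayed within 2-fold in all 3 somata, beside 29% of all genes. With genes split by mean level into lower, middle and upper parts of equal size, the median SD of factors was 0.40, 0.48 and 0.85, over 15, 19 and 25 genes, against 0.69, 0.77 and 0.85 for all genes. The smaller spread was thus found among factors of low and middle signal and not among the bright ones, and low signals lay under the background. The number of probe sets behind a value differed too, as 40.7% of the factors had several against 31.8% of all genes. Among genes with 1 probe set the median SD was 0.81 for 35 factors and 0.85 for all, and among genes with several it was 0.43 for 24 factors and 0.64 for all. With only the brightest probe set of each gene it was 0.84 for the factors and 0.86 for all genes. The share within 2-fold in all 3 somata was 40% of the factors against 25% of all genes with 1 probe set, 58.3% against 37.6% with several, and 32.2% against 24.1% with the brightest probe set. The part of the number of probe sets in the smaller spread was not tested.

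**Figure D4:**
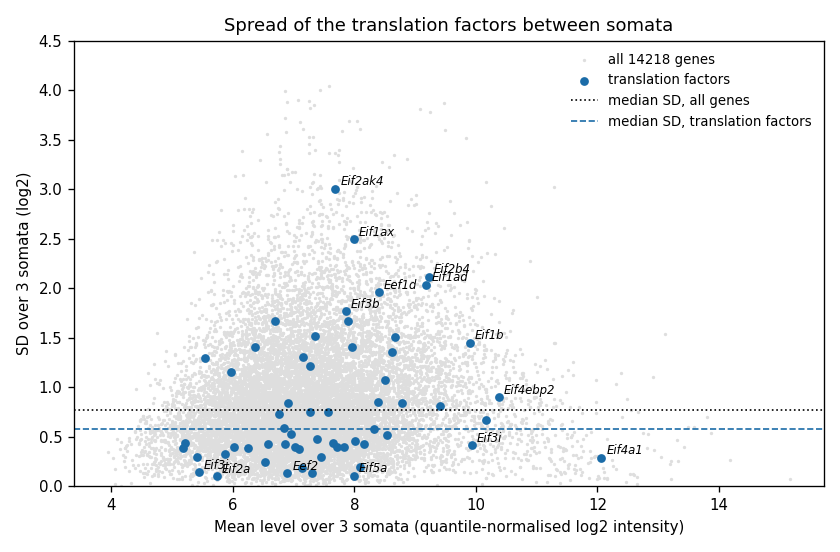
SD over the 3 somata (y axis, log2) against mean level (x axis, quantile-normalised log2 intensity) for the factor genes (large points) and all genes (small grey points). The dashed line, the median SD of the factors at 0.58, lies under the dotted line for all genes at 0.77, and the factors with the largest SD, Eif2ak4 and Eif1ax, have mean levels of 7.68 and 7.99.

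By gene value the steadiest factors were Eif2a, Eif5a, Eef2, Eif3d, Eif3j and Eif3h, with SDs between 0.10 and 0.18. Of these Eif5a and Eif3d had percentiles above 50 in each soma. The 2 probe sets of Eif3h ran in opposite directions, at 1.68, 39.8 and 19.4 and at 89.7, 66.5 and 73.5, as did those of Eef2. The small SDs of Eif3h and Eef2 thus come from the median of probe sets that were not steady themselves. Those of Eif3j ran in opposite directions from soma 2 to soma 3, at 3.55, 1.97 and 15.5 and at 27.2, 24.9 and 14.3. Among the bright members Eif4a1 had an SD of 0.29 and Eif3i of 0.41. The least steady factors by range were Eif2ak4 at 5.32 log2 units, Eif1ax at 4.98, Eif1ad at 3.99, and Eef1d and Eif2b4 both at 3.77. All 5 reached the top 5% in at least 1 soma and were below the 50th percentile in at least 1 other.

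Probe sets of the same factor gave a further check of the levels, since each reads another stretch of the transcript. For the 24 factors with several probe sets, the highest and lowest differed by a median of 38.9 percentile points, against 33.4 for all 4526 genes with several. The gap was over 50 points for 8 factors, or 33.3%, beside 28.7% of these genes, and the 8 were Eif3a, Eif4g2, Eif3l, Eef2k, Eif4g3, Eif4g1, Eif3h and Eif2ak1. One Eif4g2 probe set was at 99.5, 99.6 and 99.8 and another at 19.7, 36.4 and 48.1. One Eif3a probe set was at 51.8, 67.1 and 69.5 and another at 0.30, 0.32 and 4.33. The 2 probe sets of Eif2ak1 lay at 80.3, 92.3 and 96.8 and at 30.1, 38.6 and 73.3, so that both were highest in soma 3. Eif4e3, Eif3k and Eef2 had the smallest gaps, at 3.41, 4.26 and 9.71 points. These gaps are between medians over the somata, and in soma 1 the Eef2 probe sets lay far apart, at 69.1 and 16.3.

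**Figure D5:**
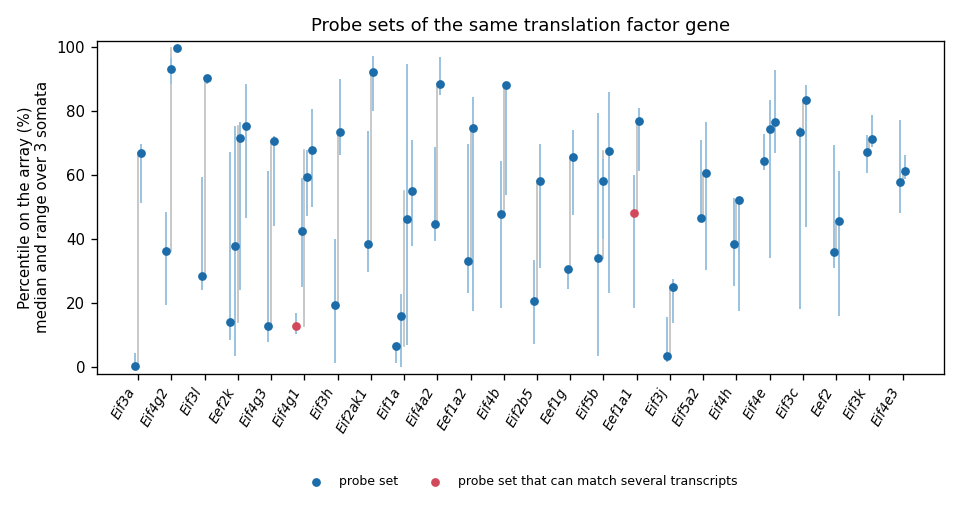
Percentile on the array (y axis, %) of each probe set of the 24 factors with several probe sets, as the median (point) and range (line) of the 3 somata, ordered by the gap between probe sets. Eif3a and Eif4g2 at the left have the widest gaps between probe sets, and those of Eif3k and Eif4e3 at the right overlap.

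Messages of the translation machinery often begin with a terminal oligopyrimidine (TOP) run, a C followed by pyrimidines, through which mTOR and LARP1 control their translation. For this reason the 30 bases around the annotated start of each factor gene, 15 before it and 15 from it on, were read on the sense strand from RefSeq (assembly GRCr8) for the 54 factors that the promoter table holds. A run was counted where a C was followed by at least 7 bases that were each C or T, anywhere in the window, because an annotated start may be off by some bases. Such a run was found for 9 factors, or 16.7%, beside 8.40% of the 33469 windows of all genes, 9.02% of those of measured genes, and 19 of 37 windows of ribosomal protein genes (51.4%). The letters of the 6 factors with the longest runs are given here with the run in capitals, followed by Eif3i, a bright member with a shorter run, and by Eif4a1, the brightest member, which has none.
Eef1b2: tttccggccggtcccggCCCTTTTTCTCCC
Eef1akmt1: gactagatgctcattggCCCCCTCCTTCCg
Eif2s3: ggcggcagccgagcattttCCTTTTCTCTC
Eif3f: tcacgcccttccgttctagCCTCTCTCTTT
Eif3k: tCTTTTTCTTCCggtccttgagtacttagt
Eif3m: cgtaacaccgtgtggtaccgCTCCTTTTCC
Eif3i: cagtCTTCTTCCggtcctactcacattgcc
Eif4a1: ggcgggcactccgccctagattctaaggat

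The windows lie at chr9:72074076-72074105 on the plus strand (Eef1b2), chr15:35826907-35826936 on the minus strand (Eef1akmt1), chrX:62933685-62933714 on the minus strand (Eif2s3), chr1:172369047-172369076 on the plus strand (Eif3f), chr1:93397473-93397502 on the minus strand (Eif3k), chr3:111897179-111897208 on the minus strand (Eif3m), chr5:147226896-147226925 on the minus strand (Eif3i) and chr10:54888588-54888617 on the minus strand (Eif4a1). In Eef1b2, Eif2s3, Eif3f and Eif3m the run ends with the window and may go on beyond it. The other members with a run were Eif2a and Eif4h. Among the eIF3 subunits 4 thus had a run, but eIF3 is also the group with the most genes, and Eif3h had no window. In Eif3k and Eif3i the run lies wholly before the annotated start. Eef1a1 and Eef2 count among the factors without a run, with longest runs of 7 and 2 letters. The rule thus counts runs near an annotated start and does not tell which messages begin with a TOP run. Where shorter runs of at least 6 letters were counted, 16 factors had one, or 29.6% beside 21.2% of all windows, and of at least 10 letters 6 factors, or 11.1% beside 3.64%.

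The 9 factors with a run had median percentiles of 75.2, 73.1 and 65.3 in the 3 somata, a mean of 71.2 ± 5.22. The 45 without one had 52.8, 46.3 and 52.7, a mean of 50.6 ± 3.72. The SDs are those of the medians over 3 arrays with the same probe sets, so they do not hold the spread between genes, which ran from a mean of 14.3 for Eif2a to 93.4 for Eif3i among the 9. The values are thus a description of these probe sets and were not tested. They also depended on the length asked of the run. With runs of at least 10 letters the medians were 79.8, 76.5 and 65.7 with a run against 51.7, 45.2 and 52.2 without. With at least 6 letters they were 60.2, 62.2 and 53.1 against 58.9, 42.8 and 54.1, so that the direction turned in soma 3. Over all measured genes in the table, the 1047 with a run had 51.5, 52.2 and 50.6 and the 10654 without had 50.1, 49.9 and 50.1, a difference in the same direction but of under 3 points.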

How the data were processed

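Per the labels, RNA of each soma went through 2 rounds of antisense RNA (aRNA) amplification and a final one with the Ambion TotalPrep kit (14 h), and 5 µg were biotin-labelled for an Affymetrix rat array. The deposited table holds log2 values, 1 for each probe set, and RMA 2.0 is the tool in the submitters' processing notes. The published methods describe dendrites and not these somata. A genome build and detection calls are not given in the sources used here. The number of arrays limits the precision.

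Gene symbols came from the platform annotation, which can be old. All 59 members were found by gene number in the RefSeq table of GRCr8 and none changed its symbol. Of 31099 probe sets, 20832 had 1 symbol and 436 several. Gene values are medians of probe sets. Percentiles used the deposited log2 values, with tied values at their mean rank. Differences between somata used quantile normalisation. Genes were named by group (every member). Pathway genes were named from the ends of some lists, together with others such as Etf1, Rptor, Rheb, Mtor and Larp1. Members and lists were chosen with earlier results of these data known, and the pyrimidine run length was set after counts at other lengths were seen. Alternatives were the brightest probe set, each probe set alone, the study's scaling to the 10th to 90th percentile, other thresholds and leaving out each soma. Python 3.11.15, numpy 2.4.6, pandas 2.3.3, scipy 1.17.1 and matplotlib 3.10.9 were used, and the steps were tested on simulated data.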

Additional observations from a re-analysis of the deposited data

How the results depend on the processing

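The median level of the factors and the number of groups above 50 stayed within 1 SD or 1.5 times of the reported value in the alternatives that were run. With the brightest probe set per gene, 2 factors (Eif4a1 and Eif4g2) were in the top 5% and 2 above background in all 3 somata in place of 1, and the median SD was 0.84. With each probe set on its own these values were 2, 2 and 0.80. With chemosensory receptors alone as background, 2 factors were above it in all somata. In the top 10% of every array were 3 factors (Eif3i, Eif4a1 and Eif4g2), or 5.08% beside 2.89% of all genes. Over 4-fold apart were 12, 12 and 8 factors in the pairs of somata 1 with 2, 1 with 3 and 2 with 3, beside 18.5%, 20% and 10.1% of all genes. Among the 5 factors with a mean above background, 2, 2 and 1 were over 2-fold apart, beside 44.4%, 54.3% and 25.2% of all such genes. Leaving out each soma in turn gave 1 to 4 factors in the top 5% of all remaining arrays, 1 to 4 above background, a median SD of 0.33 to 0.58, a level of 53.3 to 56.3 and 8 to 11 groups above 50. Without soma 1, the 4 in the top 5% were Eif2b4, Eif4a1, Eif4ebp2 and Eif4g2, and the median SD was 0.33. Of the values for single groups and single somata, 50 of 66 stayed within 1 SD or 1.5 times under other settings, and 16 moved further. Some groups crossed 50: eEF2 with its kinase rose to 51.6 with the brightest probe set and 57.7 without soma 1, eIF5B with eIF6 was at 46.7 without soma 1, and eIF1, eIF2 and eEF1A were at 48.9, 47.4 and 49.5 without soma 3. The cause was not tested. No paired analysis was possible because all samples form 1 group.

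Limits: with 3 somata of 1 group there was no second condition to compare, and no test was run. The signal of most factors lay under the level that genes not thought to be transcribed in neurons can reach, so their order is uncertain. Probe sets of the same factor often differed widely. The sources name no animal, dish or array batch.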
